A study of Mus musculus with 26 samples.

Results

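Glutamate is taken up from the space around neural cells, carried into mitochondria or converted to glutamine, and handed back to neurons as glutamine. In the brain, astrocytes do most of this work: sodium-coupled transporters of the Slc1a family clear glutamate at the plasma membrane, glutamine synthetase and glutamate dehydrogenase metabolise it, mitochondrial carriers move it across the inner membrane, and system N transporters release glutamine. Neural stem cells and radial glia already carry several of these genes, since they share much of the astrocyte programme. The gene set described here holds 8 genes of this cycle, taken by gene symbol: Slc1a1, Slc1a2, Slc1a3, Slc25a18, Slc25a22, Glul, Glud1 and Slc38a3. Of these 8, 6 matched a row of the deposited table by gene symbol, out of 19505 genes in all. Glul, which encodes glutamine synthetase, and Glud1, which encodes glutamate dehydrogenase, were not analysed here.

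The arrays profiled neural stem and progenitor cells (NSPCs) cultured from the telencephalon of C57BL/6 mice at postnatal day 0, a tissue that the labels also call fetal or embryonic, and grown in Neurocult medium with EGF and FGF. There were 6 wild-type (WT) cultures and 7 SOX2 knockout (SOX2 KO) cultures, each kept separate by animal. Sox2 encodes a transcription factor that maintains neural stem cells. After passage 3 each culture gave 1 array after 4 h of ethanol vehicle and 1 array after 4 h of 100 nM dexamethasone (Dex), a synthetic agonist of the glucocorticoid receptor, so 26 arrays form 4 groups. How the knockout was made, which cells and stage it covers, and the sex of each culture are not given in the sources used here. The deposited values were read as log2 intensities, so a difference of 1 is a doubling, but the log base and the normalization are not stated. All 26 array medians lay between 6.44 and 6.84. Levels of different genes come from different probes and are not compared with each other.

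The labels were checked first. Sox2 was 12.17 or higher on every WT array and 6.50 or lower on every SOX2 KO array. Fkbp5, a standard glucocorticoid target, was 1.27 to 1.87 higher after Dex in 5 of 6 WT cultures and 1.79 to 2.83 higher in 7 of 7 SOX2 KO cultures. In WT culture 4 it was 14.39 on the array labelled vehicle and 12.36 on the array labelled Dex, against the labels, so the Dex results of the gene set are also given without that culture. Of the progenitor markers, Nes, an intermediate filament gene of neural stem cells, was between 12.53 and 13.34 on the WT and between 12.42 and 13.62 on the SOX2 KO vehicle arrays. Vim, another intermediate filament gene, was between 17.60 and 18.28 and between 17.41 and 19.00, and Fabp7, a fatty acid binding protein gene of radial glia, between 18.58 and 19.39 and between 18.59 and 19.42. Sox9, a transcription factor gene of glial progenitors, was between 14.43 and 15.30 and between 13.80 and 15.84, and Hes5, a Notch target, between 9.24 and 10.23 and between 9.30 and 10.52. For all 5 the genotypes overlapped.

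Slc1a2, the astrocytic glutamate transporter GLT-1, was lower in SOX2 KO cells in vehicle and in Dex. On vehicle arrays its level was 11.24 at the lowest, 12.33 at the median and 12.86 at the highest WT culture. In the SOX2 KO cultures the lowest was 9.26, the median 10.14 and the highest 11.16. No SOX2 KO vehicle array reached any WT vehicle array, although the gap between the lowest WT culture (culture 6, 11.24) and the highest SOX2 KO culture (culture 7, 11.16) was small. The group means were 12.23 ± 0.55 (SD, n = 6) and 10.19 ± 0.73 (SD, n = 7), a difference of -2.03 ± 0.35 (SE; 95% confidence interval -2.75 to -1.31; limma, Benjamini-Hochberg adjusted p = 0.00204), or 4.09-fold lower if the values are log2. On Dex arrays the WT cultures ran from 10.67 through a median of 12.56 to 12.68, and the SOX2 KO cultures from 9.26 through 10.32 to 11.04. Here the groups overlapped, because WT culture 6, at 10.67, lay below SOX2 KO cultures 7 (10.73) and 10 (11.04). The difference in Dex was -2.08 ± 0.35 (SE; 95% confidence interval -2.80 to -1.36; limma adjusted p = 0.00153), 4.24-fold lower on the linear scale.

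Slc1a3, the glutamate transporter GLAST that marks radial glia and astrocytes, spread widely within each genotype. On vehicle arrays it was 12.11, 12.58 and 14.83 at the lowest, median and highest WT culture, and 12.21, 13.10 and 14.51 in the SOX2 KO cultures. The groups overlapped along nearly their whole ranges. Their means were 13.04 ± 1.03 (SD, n = 6) and 13.16 ± 0.89 (SD, n = 7), and the difference of 0.13 ± 0.45 (SE) had a 95% confidence interval from -0.80 to 1.06 (limma adjusted p = 1.00), so a change of up to about 1 log2 unit in either direction is not excluded at this spread. In Dex the difference was -0.22 ± 0.45 (SE; limma adjusted p = 0.961). Most of the spread ran between cultures and not between genotypes. WT culture 4 and SOX2 KO cultures 10 and 12 gave 6 arrays with a mean of 14.35 ± 0.54 (SD, range 13.34 to 14.83), while the other 20 arrays lay between 12.08 and 13.70. These 3 cultures form a cluster of their own when the cultures are grouped on their residual profiles over all genes, Slc1a3 included, so this is a description and no test.

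Slc1a1, the transporter EAAC1 that is best known from neurons, varied by more than 2 log2 units between cultures of the same genotype. On vehicle arrays it ran from 7.35 through a median of 8.14 to 9.93 in WT and from 7.41 through 8.39 to 10.34 in SOX2 KO. Both genotypes covered the same range. The difference was 0.07 ± 0.50 (SE; 95% confidence interval -0.94 to 1.08; limma adjusted p = 1.00) in vehicle and 0.23 ± 0.50 (SE; adjusted p = 0.962) in Dex.

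Slc25a18, the mitochondrial glutamate carrier GC2 of the inner membrane, had the largest genotype difference of the 6 genes. On vehicle arrays the WT cultures ran from 11.44 through a median of 12.60 to 13.12, and the SOX2 KO cultures from 9.32 through 9.78 to 10.64. On Dex arrays the WT cultures ran from 11.30 through 12.61 to 13.08 and the SOX2 KO cultures from 8.11 through 9.83 to 10.31. The genotypes did not overlap on either set of arrays. The vehicle means were 12.49 ± 0.65 (SD, n = 6) and 9.85 ± 0.47 (SD, n = 7), a difference of -2.64 ± 0.33 (SE; 95% confidence interval -3.32 to -1.96; limma adjusted p = 2.05e-05), 6.24-fold lower on the linear scale. In Dex the difference was -2.87 ± 0.33 (SE; 95% confidence interval -3.54 to -2.19; limma adjusted p = 5.14e-06), 7.29-fold lower.

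Slc25a22, the other mitochondrial glutamate carrier (GC1), showed no such difference. Its level was 6.60, 6.83 and 7.07 at the lowest, median and highest WT vehicle array and 6.39, 6.89 and 7.50 on the SOX2 KO vehicle arrays. The SOX2 KO range enclosed the WT range. Over both treatments all its levels lay between 6.03 and 7.50, near the array medians of 6.44 to 6.84. How far so low a signal limits a difference was not tested. The difference was 0.10 ± 0.21 (SE; 95% confidence interval -0.32 to 0.52; limma adjusted p = 1.00) in vehicle and -0.05 ± 0.21 (SE; adjusted p = 0.983) in Dex. The vehicle interval of Slc25a22 and that of Slc25a18 do not meet, but the difference between the 2 genes was not tested.

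Slc38a3, the system N transporter SNAT3 that releases glutamine from astrocytes, also did not pass the test. Its vehicle levels ran from 10.67 through 12.07 to 12.60 in WT and from 11.52 through 12.14 to 12.94 in SOX2 KO. The 2 lowest vehicle arrays were both WT (culture 6 at 10.67 and culture 3 at 10.93), and the remaining arrays overlapped. The difference was 0.43 ± 0.31 (SE; 95% confidence interval -0.20 to 1.07; limma adjusted p = 1.00) in vehicle and 0.41 ± 0.31 (SE; adjusted p = 0.860) in Dex.

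**Figure D1:**
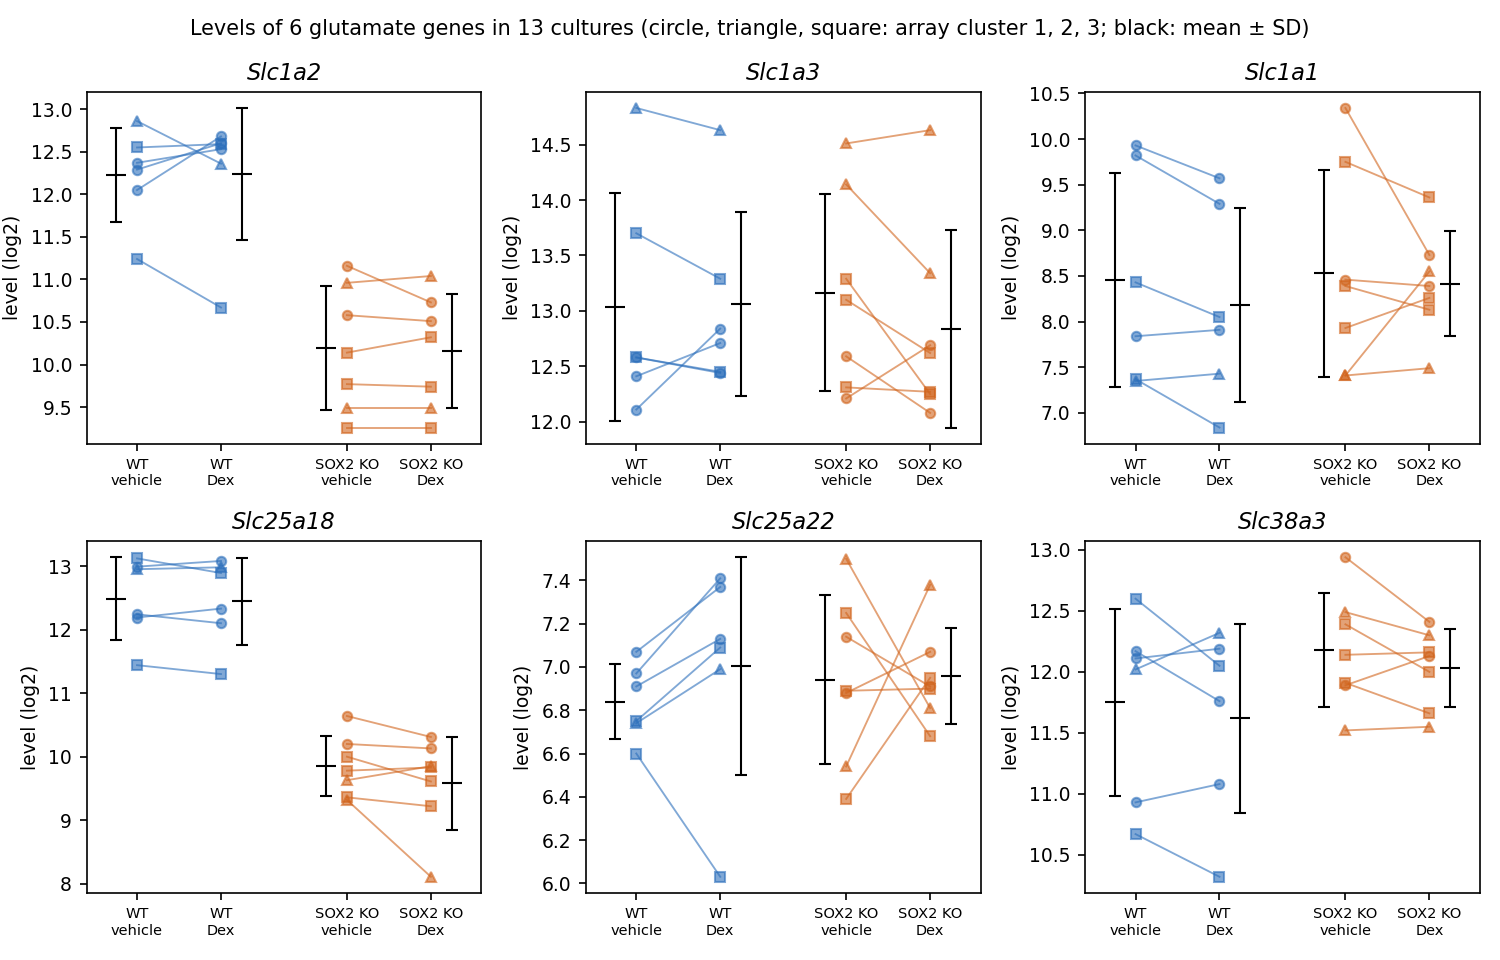
Level (log2) of the 6 analysed glutamate genes on every array by genotype and treatment, 1 point per array, with a bar at each group mean. Slc25a18 separates the genotypes in both treatments, Slc1a2 does so in vehicle only, and the other 4 genes overlap.

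So 2 of 6 genes were lower and 0 of 6 higher in each genotype comparison. The vehicle and Dex arrays come from the same cultures, so the second comparison is not an independent repeat of the first. Over all genes tested, 0.559% passed in vehicle and 0.564% in Dex. Groups that did not overlap were found for 0.518% of genes in vehicle, where Slc1a2 and Slc25a18 are among them, and for 0.482% in Dex, where Slc25a18 is. The median difference of the 6 genes was 0.09 in vehicle and -0.13 in Dex, against -0.03 and -0.06 over all genes. In bulk arrays, fewer cells that carry a transcript and less of it per cell cannot be told apart. Each genotype difference compares 1 array per culture, but its spread is estimated over all 26 arrays taken as independent. The 2 arrays of a culture are alike (consensus correlation 0.489), so that spread rests on fewer independent values than arrays. With only the arrays compared, or with culture as a random effect, the same 2 genes passed. The table was deposited without background signals.

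**Figure D2:**
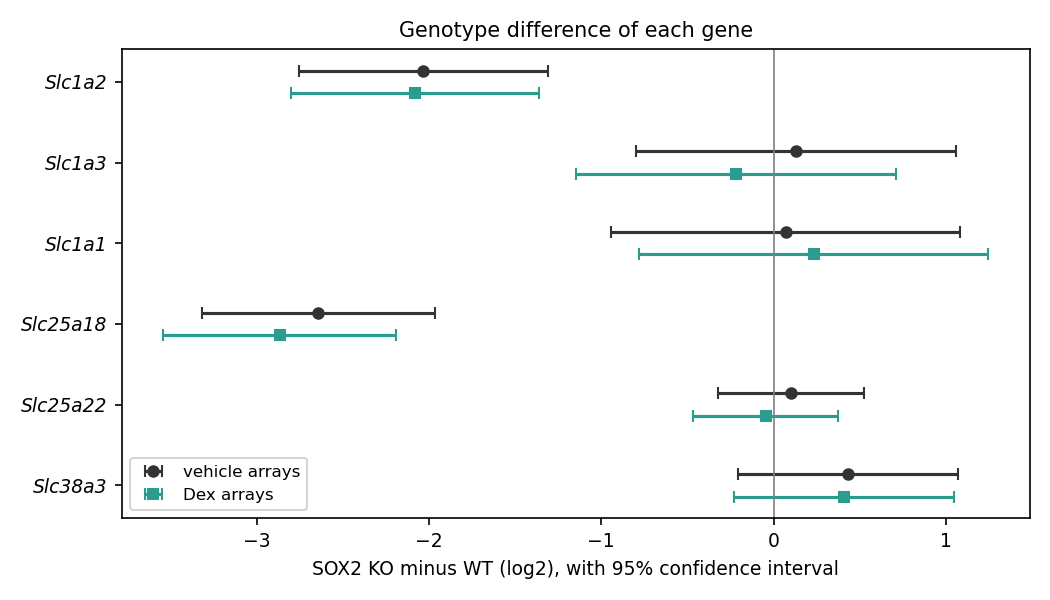
SOX2 KO minus WT difference (log2) of each analysed gene in vehicle (circles) and Dex (squares), with its 95% confidence interval from the limma fit. The intervals of Slc1a2 and Slc25a18 lie below 0 in both treatments and those of the other 4 genes include 0.

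The cultures were grouped into 3 clusters, a number set beforehand, by residual profiles from which each group's mean had been removed. Removing the means takes out the genotype difference, so clusters that hold both genotypes are no result. Both falls were read within them as a description, with 1 to 3 cultures per genotype in each. For Slc1a2 the SOX2 KO minus WT difference in vehicle was -1.37 among cultures 1, 2, 3, 7 and 8, -2.64 among cultures 4, 10 and 12, and -2.17 among cultures 5, 6, 9, 11 and 13. For Slc25a18 it was -2.05, -3.48 and -2.57 in the same order. On Dex arrays the values were -1.98, -2.10 and -1.86 for Slc1a2 and -2.28, -4.00 and -2.54 for Slc25a18. Both genes were lower in the knockout in all 3 clusters and both treatments, with WT culture 4 as the only WT member of the cluster it shares with cultures 10 and 12. None of the other 4 genes kept 1 direction over all 6 values. In vehicle, Slc1a1 (0.20, 0.06 and 0.79) and Slc25a22 (0.03, 0.28 and 0.17) were above 0 in each cluster, while Slc1a3 (0.03, -0.51 and -0.24) and Slc38a3 (0.68, -0.02 and 0.51) were not of 1 sign. In Dex, Slc1a3 was below 0 in each cluster (-0.28, -0.65 and -0.49), and Slc1a1 (-0.36, 0.59 and 1.14), Slc25a22 (-0.31, 0.11 and 0.28) and Slc38a3 (0.59, -0.40 and 0.76) were of mixed sign.

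The promoters of the 2 genes that fell are shown, since Sox2 encodes a DNA-binding factor. That of Slc25a22, the carrier of the same function that did not pass and lay near the array medians, is shown beside them. Each is the RefSeq sequence (GRCm38.p6) from 250 bases before to 50 bases after an annotated start, 5′ to 3′ on the gene's strand, with any SOX core match in capitals. Slc1a2 lies at chr2:102706188-102706487 (plus strand), Slc25a18 at chr6:120773518-120773817 (plus strand) and the first of 3 starts of Slc25a22 at chr7:141437825-141438124 (minus strand).
Slc1a2: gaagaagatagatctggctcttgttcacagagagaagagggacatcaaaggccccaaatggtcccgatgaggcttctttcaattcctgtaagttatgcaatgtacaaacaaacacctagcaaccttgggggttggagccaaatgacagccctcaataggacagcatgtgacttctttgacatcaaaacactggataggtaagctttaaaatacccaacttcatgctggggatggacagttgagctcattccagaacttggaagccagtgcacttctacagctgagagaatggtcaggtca
Slc25a18: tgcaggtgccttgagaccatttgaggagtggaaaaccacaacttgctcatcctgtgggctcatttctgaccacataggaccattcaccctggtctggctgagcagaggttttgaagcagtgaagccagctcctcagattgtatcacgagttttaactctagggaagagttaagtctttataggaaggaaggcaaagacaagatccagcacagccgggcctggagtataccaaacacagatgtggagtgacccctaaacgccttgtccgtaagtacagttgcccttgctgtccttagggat
Slc25a22: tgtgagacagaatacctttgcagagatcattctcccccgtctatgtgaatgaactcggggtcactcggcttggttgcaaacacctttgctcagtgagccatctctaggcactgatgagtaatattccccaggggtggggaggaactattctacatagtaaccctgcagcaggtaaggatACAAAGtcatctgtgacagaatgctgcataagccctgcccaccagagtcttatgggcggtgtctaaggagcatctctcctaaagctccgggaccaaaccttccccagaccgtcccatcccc
The motifs searched on both strands were the SOX cores ACAATG and ACAAAG, and the glucocorticoid receptor hexamer AGAACA with its spaced form, whose matches are also matches of the hexamer. The printed Slc1a2 and Slc25a18 windows held none of these, whereas the printed Slc25a22 window held ACAAAG, its first base at -71 counted from -1 just before the start. A promoter was listed for 7 of the 8 genes, and the only other matches in their windows were ACAAAG at -179 of the third Slc25a22 start and AGAACA at -24 of Slc1a3. Of 32851 listed mouse promoters of this length, 28.6% held either SOX core, 19.0% held AGAACA and 0.414% held the spaced form. Only 1 start each was listed for Slc1a2 and Slc25a18, and any other start of these genes was not searched. These are matches of letters in a short window, not binding data.

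Dex moved none of the 6 genes past the threshold in either genotype (limma with culture as a block; 0 of 6 also at an unadjusted p under 0.05). Over all genes, 0% passed in WT (755 of 19505 at an unadjusted p under 0.05) and 0.0718% in SOX2 KO (1984). In WT the paired Dex minus vehicle differences of Slc1a2 ran from -0.57 in culture 6 to 0.63 in culture 3, with a mean of 0.01 ± 0.15 (SE; 95% confidence interval -0.31 to 0.33). In SOX2 KO they ran from -0.43 to 0.18 with a mean of -0.04 ± 0.14 (SE; adjusted p = 0.936). Neither genotype moved in 1 direction. For Slc25a18 the WT differences lay between -0.23 and 0.14 with a mean of -0.04 ± 0.16 (SE). The SOX2 KO differences ran from -1.21 to 0.22, were below 0 in 5 of 7 cultures and averaged -0.27 ± 0.14 (SE; 95% confidence interval -0.57 to 0.04; limma adjusted p = 0.551).

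Slc1a3 was lower after Dex in 5 of 7 SOX2 KO cultures, from -1.04 in culture 13 to 0.48 in culture 8, with a mean of -0.32 ± 0.17 (SE; 95% confidence interval -0.69 to 0.04; limma adjusted p = 0.547). In WT it was lower in 4 of 6 cultures with a mean of 0.03 ± 0.19 (SE). This genotype difference in the Dex effect, -0.35 ± 0.26 (SE; 95% confidence interval -0.89 to 0.19), was the largest of the 6 and did not pass (adjusted p = 0.999). Slc25a22 was higher in 5 of 6 WT cultures, by 0.16 ± 0.19 (SE) on average, and averaged 0.02 ± 0.17 (SE) in SOX2 KO. Slc38a3 averaged -0.13 ± 0.14 (SE) in WT and -0.15 ± 0.13 (SE) in SOX2 KO. Slc1a1 averaged -0.27 ± 0.23 (SE) in WT and -0.11 ± 0.22 (SE) in SOX2 KO, with single SOX2 KO cultures at -1.61 (culture 7) and 1.14 (culture 12). The adjusted p was 0.998 for each of the 6 genes in WT and between 0.547 and 0.982 in SOX2 KO.

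**Figure D3:**
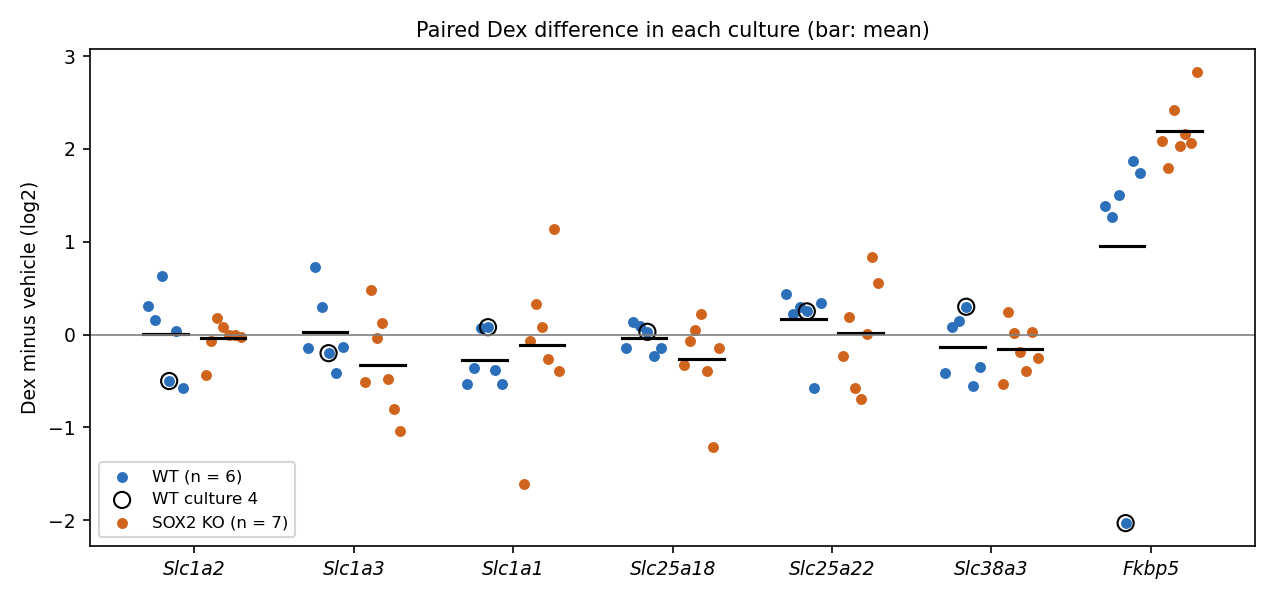
Dex minus vehicle difference (log2) of each culture for the 6 analysed genes and Fkbp5, 1 point per culture, with a bar at the mean of each genotype. The 6 genes scatter around 0 in both genotypes, while Fkbp5 is above 0 in all cultures but WT culture 4.

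Without WT culture 4, none of the 6 genes passed either (limma). Slc1a2 averaged 0.11 ± 0.16 (SE), Slc1a3 0.07 ± 0.21 (SE) and Slc25a18 -0.06 ± 0.18 (SE) in the other 5 WT cultures, with adjusted p = 0.998 for each. Slc1a1 averaged -0.35 ± 0.26 (SE), Slc25a22 0.15 ± 0.21 (SE) and Slc38a3 -0.22 ± 0.15 (SE), again with adjusted p = 0.998 for each. The difference between genotypes in the Dex effect was then between -0.39 (Slc1a3) and 0.23 (Slc1a1), with adjusted p = 1.00 for each of the 6. Over all genes 0.169% passed in WT and 0.251% in SOX2 KO, that is 33 and 49 genes, but without the block as well only 7 and 16 genes passed. With all cultures, the Dex effect passed the test of a difference between genotypes for none of the 6 genes, and for 0% of all genes (688 at an unadjusted p under 0.05; limma adjusted p = 0.999 for each of the 6). The 6 intervals of that difference are wide: that of Slc1a3, given above, spans about 1 log2 unit.

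Other genes that handle glutamate were described from 4 lists by role, of which 50 of 56 genes were analysed. In each genotype comparison 1 of the 50 passed, against 0.559% and 0.564% of all genes. It was Slc6a11, the GABA transporter GAT-3 of astrocytes, which clears the inhibitory transmitter made from glutamate. On vehicle arrays Slc6a11 ran from 14.36 to 15.33 in WT and from 12.13 to 13.42 in SOX2 KO, with no overlap. The difference was -1.86 ± 0.24 (SE; limma adjusted p = 2.87e-05) in vehicle and -1.97 ± 0.24 (SE; adjusted p = 9.83e-06) in Dex. At an unadjusted limma p under 0.05 there were 14 of the 50 in vehicle and 14 in Dex. Over all 19505 genes there were 1009 (5.17%) in vehicle and 1475 (7.56%) in Dex. The lists were chosen with earlier results known, so these counts are no test. Of the 12 plasma membrane carriers, the other 11 did not pass in vehicle, and the list's median difference was -0.09. None of the 17 enzymes of glutamate and glutamine metabolism passed (5 at an unadjusted p under 0.05 in vehicle and 3 in Dex). Of these 17 differences, 16 were below 0 in vehicle and 14 in Dex, with medians of -0.35 and -0.38, while 55.2% and 58.7% of all genes were below 0. None of the 7 other mitochondrial and vesicular carriers passed (median -0.00, 1 at an unadjusted p under 0.05), nor any of the 14 glutamate receptors (median -0.01, 7 at an unadjusted p under 0.05). Over all 50 genes the median was -0.22 in vehicle and -0.19 in Dex, against -0.03 and -0.06 over all genes.

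**Figure D4:**
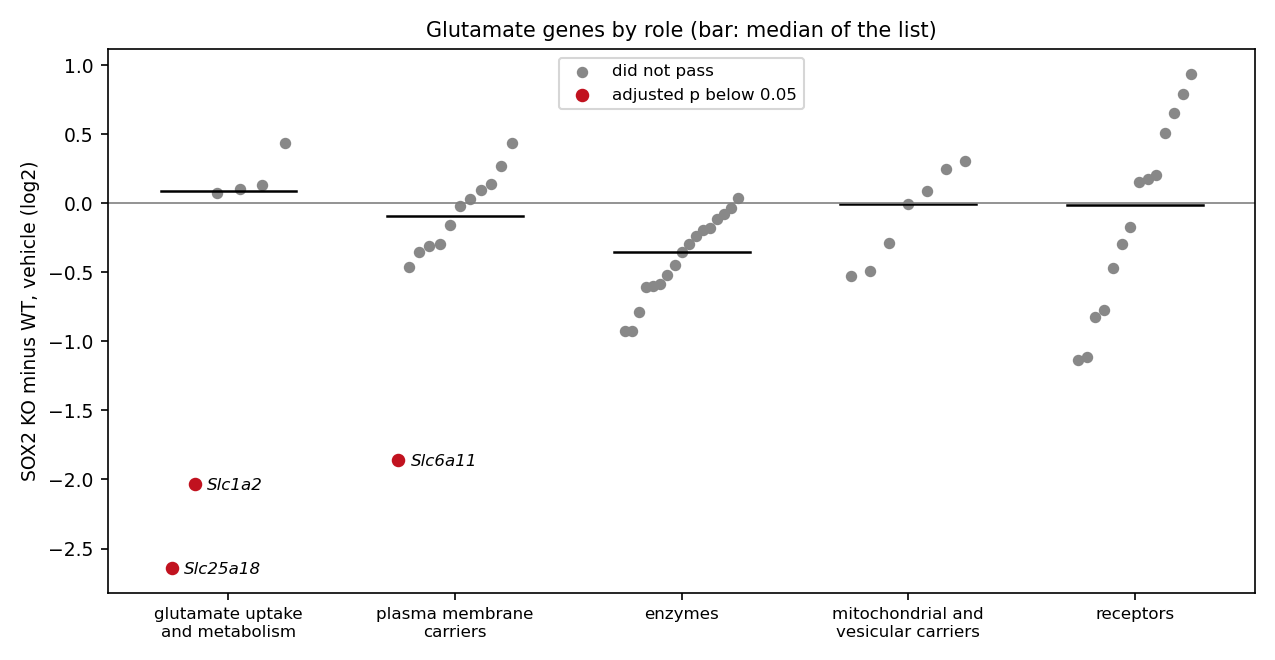
SOX2 KO minus WT difference (log2) on vehicle arrays of the 6 analysed genes and of 4 lists of other glutamate genes, 1 point per gene, with a bar at each list's median. Slc1a2, Slc25a18 and Slc6a11 passed the test; the receptors spread to both sides of 0 and the enzymes lie mostly below it.

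After Dex, 0 of the 50 pathway genes passed in WT (4 at an unadjusted p under 0.05), in SOX2 KO (9) or in the difference between genotypes (1), by limma. Over all genes the counts at that unadjusted p were 755, 1984 and 688, or 3.87%, 10.2% and 3.53%. Bcat1, the cytosolic branched-chain aminotransferase that forms glutamate from 2-oxoglutarate, was among the smallest p-values in both genotypes. It was higher after Dex by 0.99 to 1.52 in WT cultures 1, 2, 3, 5 and 6, while the difference was -1.78 in WT culture 4, the culture whose Fkbp5 went against its labels. In the SOX2 KO cultures it was higher by 0.91 to 1.39 in 6 cultures and by 0.02 in culture 12. With all cultures the mean was 0.71 ± 0.31 (SE; limma adjusted p = 0.998) in WT and 1.01 ± 0.29 (SE; adjusted p = 0.310) in SOX2 KO. Without WT culture 4 both passed, at 1.21 ± 0.18 (SE; adjusted p = 0.00484) in WT and 1.01 ± 0.15 (SE; adjusted p = 0.00323) in SOX2 KO, and Bcat1 was then the 1 gene of 50 that passed in each. These calls were lost when the block was removed as well (adjusted p = 0.960 in WT and 0.614 in SOX2 KO). The SOX2 KO mean was 1.01 in both fits, and only its SE fell, since the spread is estimated over both genotypes. Culture 4 was left out for its own Dex response in Fkbp5, so the Bcat1 calls without it are no independent test. The other genes with the smallest p did not pass: the Purkinje-type glutamate transporter gene Slc1a6 in WT (0.41 ± 0.17, SE; adjusted p = 0.998), the AMPA receptor subunit gene Gria2 in SOX2 KO (0.52 ± 0.16, SE; adjusted p = 0.336), and, in the difference, Gad2, which encodes a glutamate decarboxylase (0.57 ± 0.25, SE), and Slc1a6 (-0.45 ± 0.23, SE), both with adjusted p = 0.999. Without WT culture 4 these were 0.37 ± 0.19 (SE) for Slc1a6 in WT, 0.52 ± 0.13 (SE) for Gria2 in SOX2 KO, and 0.55 ± 0.27 (SE) for Gad2 and -0.41 ± 0.25 (SE) for Slc1a6 in the difference, and none of them passed (limma adjusted p = 0.171 for Gria2 and 0.998 to 1.00 for the others). Slc1a6 was 6.35 or lower and Gad2 5.98 or lower on every array, below the lowest array median of 6.44, so their differences rest on low signal.

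Markers of the cell types that a neural culture could hold were read beside these falls. The share of all genes that passed was 0.559% in vehicle and 0.564% in Dex. Of 15 astrocyte and radial glia markers, 3 were lower in both genotype comparisons and 0 higher. In vehicle these were Aldoc, a glycolytic aldolase (-1.71 ± 0.22, SE; limma adjusted p = 3.57e-05), Slc4a4, a sodium bicarbonate cotransporter (-2.001 ± 0.337, SE; adjusted p = 0.00154), and Acsbg1, an acyl-CoA synthetase (-0.90 ± 0.17, SE; adjusted p = 0.00596). Of the 15 differences, 7 were below 0 and 8 above in vehicle (list median 0.003), and 11 were below and 4 above in Dex (list median -0.23). The mean level of the whole list overlapped, at 11.90 to 12.98 on WT and 11.95 to 12.73 on SOX2 KO vehicle arrays. Of 9 neuronal markers 1 was lower (Syt1, a synaptic vesicle protein gene, in both treatments), with list means of 8.45 to 9.22 in WT and 8.32 to 8.92 in SOX2 KO. None of the 8 oligodendrocyte lineage markers passed, with list means of 8.72 to 10.66 and 8.93 to 10.77. Microglial list means were 4.71 to 5.32 and 4.54 to 5.26, and those of endothelial cells, pericytes and fibroblasts 4.71 to 5.19 and 4.77 to 5.01, with 0 genes called. The part of these markers in the falls of Slc1a2 and Slc25a18 was not tested.

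Slc1a2 and Slc25a18 were each among the 5 genes whose levels were most like the other's over the 26 arrays. Their correlation was 0.92 by Pearson and 0.88 by Spearman, given as a description, since the genotype gap and the shared cultures set much of it. Besides Slc25a18, the genes most like Slc1a2 were Nwd1 (Pearson 0.925), Rtn1 (0.914), Sppl2b (0.906) and Mcc (0.904). Besides Slc1a2, those most like Slc25a18 were Slc6a11 (0.959), Kcna2 (0.937), Acsbg1 (0.933) and Sox2 itself (0.928). Within genotypes the Pearson value of Slc25a18 with Sox2 was -0.17 over the 6 WT and 0.88 over the 7 SOX2 KO cultures, whereas with Slc6a11 it was 0.74 and 0.79. In the SOX2 KO cultures the mean Sox2 level was only 3.935 to 5.99, below the lowest array median of 6.44. The value of 0.88 thus rests on low Sox2 signal and was not tested. Within genotypes, over means of each culture's 2 arrays, Slc1a2 and Slc25a18 gave Pearson r = 0.830 in the 6 WT cultures (exact permutation p = 0.0486, adjusted over 2 relations 0.0972; Spearman 0.371, exact p = 0.497). Without cultures 4 and 6, the 2 furthest from the WT median of Slc1a2, r was 0.112. They were left out as a pair and not singly, so r without each alone was not read. The Slc1a2 mean of culture 6 was 10.955, while the other WT cultures lay between 12.365 and 12.61, with culture 4 the highest. In the 7 SOX2 KO cultures r was 0.651 (exact permutation p = 0.117, adjusted 0.117; Spearman 0.414, exact p = 0.360), and 0.986 without cultures 10 and 11, left out by the same rule. Neither relation passed after adjustment. These 2 genes were the ones called on these same arrays and had the highest Pearson value of all pairs of the 6 genes. The adjustment over 2 relations does not cover that choice. All permutation tests were two-sided.

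**Figure D5:**
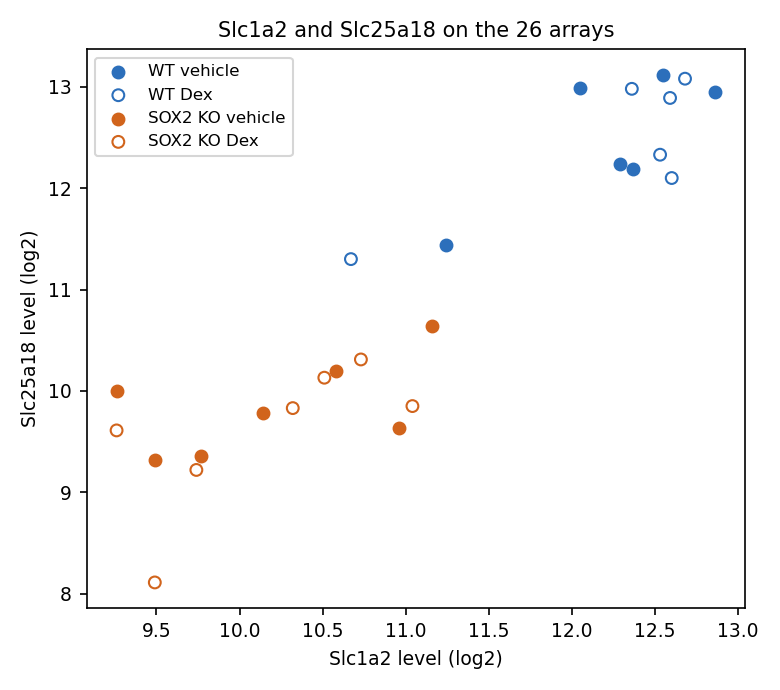
Slc25a18 level against Slc1a2 level (both log2), 1 point per array, coloured by genotype and filled for vehicle or open for Dex. The WT arrays lie at the upper right and the SOX2 KO arrays at the lower left, and WT culture 6 (Slc1a2 11.24 and 10.67) lies between them.

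WT culture 6 was the lowest WT culture for Slc1a2, Slc25a18 and Slc38a3 on both arrays. It was also the lowest WT culture on both arrays for 6 of the 15 astrocyte and radial glia markers: Gfap (5.48 in vehicle and 5.13 in Dex), Aqp4 (8.86 and 9.33), Aldh1l1, Gja1, Slc4a4 (11.35 and 11.00) and Acsbg1 (15.03 and 15.19). Aldoc and Fgfr3 were lowest in culture 6 in vehicle only, and S100b in Dex only. Fabp7, Hes5, Sox9, Vim, Nes and Ntsr2 were lowest in other WT cultures on both arrays. Sox9 was highest in culture 6 among the WT vehicle arrays (15.30). The share of all genes lowest in culture 6 on both arrays was not counted. The mean of the whole list was 11.90 and 11.86 in this culture, the lowest of the WT cultures. The part of these markers in its low Slc1a2, Slc25a18 and Slc38a3 levels was not tested. The Slc25a18 levels of culture 6, 11.44 in vehicle and 11.30 in Dex, still lay above every SOX2 KO array. Leaving out each culture in turn kept both falls past the threshold in both treatments.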

How the data were processed

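The deposited table holds the authors' processed values, read here as log2 intensities of 22206 transcript clusters on 26 one-colour arrays hybridised with biotin-labelled cRNA; per the labels the RNA was total RNA. The normalization and software are not given in the sources used here. Clusters with 1 symbol in the platform annotation (19572; 2634 had none) were reduced to 19505 genes by keeping the row of highest mean. R 4.3.3 and limma 3.58.1 (lmFit, eBayes) were run on all 19505 genes with Benjamini-Hochberg adjustment at 0.05. Genotype was tested on 4 group means over all arrays, with the 2 arrays of a culture taken as independent. Dex and its difference between genotypes were tested with culture as a fixed block, since the labels give the 2 arrays of a culture the same number; the residual profiles of same-numbered arrays correlated at 0.31 to 0.73 in all 13 pairs. Cultures come from separate animals. The scripts were tested on simulated data.

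Named genes were all 8 genes of the set, pathway genes past the threshold (or, where none passed, the 2 of smallest p), Sox2 and Fkbp5 as checks, and the 5 genes most correlated with each gene of the set that was called. Markers were named from lists, those that passed by the same threshold. The gene set, the lists and the rules were chosen with earlier results of these data known. Alternatives covered scaling, a filter on low values, rows per gene, the variance prior, array clusters, array weights, the block and leaving out each culture.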

Additional observations from a re-analysis of the deposited data

Results flagged for a closer look

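In 36 sets of values (6 genes, 4 groups of levels and 2 groups of paired differences each), 5 had 1 culture that stood apart by Dixon's test, which flags about 5% of such sets by chance. Slc1a2 was 10.67 in WT culture 6 in Dex, while the other WT cultures lay between 12.36 and 12.68. The Dex minus vehicle difference of Slc1a2 was -0.43 in SOX2 KO culture 7, against -0.07 to 0.18 in the others. That of Slc25a18 was -1.21 in SOX2 KO culture 12, against -0.39 to 0.22. Slc25a22 was 6.03 in WT culture 5 in Dex, with the other WT cultures at 6.99 to 7.41, and its Dex minus vehicle difference in that culture was -0.57, against 0.22 to 0.44.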

How the results depend on the processing

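Of 630 values of the 6 genes under alternative settings, 586 kept their direction and their side of the threshold and 44 turned sign, none of them past the threshold. Many of the 630 could not turn sign. Each of the 6 genes had 1 row, and the filter, the variance prior and the random block leave the difference itself unchanged. With the fixed block, leaving out a culture of 1 genotype cannot move the Dex effect of the other. The 586 are thus no count of independent checks. Slc1a2 and Slc25a18 passed in 21 of 21 settings in each genotype comparison. Slc1a2 ranged from -2.23 to -1.88 in vehicle (limma adjusted p 0.000107 to 0.00979) and from -2.40 to -1.93 in Dex (highest adjusted p 0.0105), and Slc25a18 from -2.85 to -2.51 and from -3.10 to -2.62 (highest adjusted p 0.00019 and 0.000438). Without the replicate block, 0 of 6 genes passed for Dex in WT, 0 in SOX2 KO and 0 in the difference, as with it; with the block as a random effect (consensus correlation 0.489), 2 of 6 passed in each genotype comparison.

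The values that turned sign were small. With the array cluster as a covariate Slc1a3 was -0.14 in the vehicle genotype comparison, and Slc25a22 was 0.000321 in the Dex one, where quantile normalization gave 0.0950 and median centring 0.0340. For Dex, Slc1a2 in WT was -0.0125 with median centring; in SOX2 KO, quantile normalization gave Slc1a1 0.0172 and Slc1a2 0.0510, and array weights gave Slc25a22 -0.0939. In the difference, quantile normalization gave Slc1a2 0.0117 and Slc38a3 0.0069, and Slc38a3 was 0.0213 with median centring and 0.0631 with no replicate block and without WT culture 4, a setting chosen after seeing the data. Leaving out 1 culture at a time gave these ranges: in the vehicle genotype comparison Slc1a1 -0.23 to 0.37 and Slc1a3 -0.0950 to 0.49; in the Dex one Slc1a1 -0.0343 to 0.51, Slc1a3 -0.52 to 0.0940 and Slc25a22 -0.24 to 0.0351. For Dex in WT they were Slc1a2 -0.11 to 0.13 and Slc1a3 -0.12 to 0.11, in SOX2 KO Slc1a1 -0.32 to 0.14, Slc1a2 -0.0750 to 0.0267 and Slc25a22 -0.12 to 0.13, and in the difference Slc1a1 -0.0450 to 0.41, Slc1a2 -0.17 to 0.0734 and Slc38a3 -0.11 to 0.06.

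Of the 50 pathway genes, 1 passed in the vehicle genotype comparison, but 2 with quantile normalization, 3 with median centring, 6 with the array cluster and 1 to 3 leaving out a culture (3 without WT culture 3). In Dex the counts were 1, then 2, 3, 5 and 1 to 2. For Dex in WT and in SOX2 KO they were 0 to 1 leaving out a culture. Over all genes the vehicle count went from 109 to 168 with quantile normalization and 376 with the array cluster, and the Dex count from 110 (36 higher, 74 lower) to 171 (78 and 93), 144 with median centring (67 and 77), 397 with the array cluster and 72 with only the arrays compared. Leaving out a culture gave 69 to 160 in Dex (69 without WT culture 1, 160 without WT culture 6). The Dex count in SOX2 KO went from 14 to 3 without SOX2 KO culture 13 and 49 without WT culture 4, and that in WT from 0 to 33 without WT culture 4. The cause was not tested. An array cluster by Dex interaction was not run.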

Other observations

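4 glutamate receptor genes, chosen here after their values were seen, passed in a genotype comparison under some settings only, 2 of them higher and 2 lower in SOX2 KO cells. Grin2a, an NMDA receptor subunit gene, was 0.94 higher in vehicle (limma adjusted p = 0.120) and passed with median centring (0.97, adjusted p = 0.0268), with the array cluster as a covariate (1.03, adjusted p = 0.00254) and with quantile normalization. Grm3, a metabotropic glutamate receptor gene, was 0.79 higher (adjusted p = 0.144) and passed with median centring (0.83, adjusted p = 0.0236), with the array cluster (0.87, adjusted p = 0.00377) and without WT culture 3 (0.94, adjusted p = 0.0334). Gria2, an AMPA receptor subunit gene, had a difference of -0.82 (adjusted p = 0.116) and passed with the array cluster (-0.91, adjusted p = 0.00595) and without WT culture 3 (-0.99, adjusted p = 0.0319), but in Dex under neither. Gria1, another AMPA receptor subunit gene, had differences of -1.13 in vehicle (adjusted p = 0.342) and -1.24 in Dex (adjusted p = 0.210) and passed in both without WT culture 6 (-1.45, adjusted p = 0.0364, and -1.49, adjusted p = 0.0249).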
